A study of Mus musculus with 8 samples.

Results

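Proteasome subunit transcripts were followed in the migrating primordial germ cells (PGCs) from which eggs and sperm descend. The members were all genes whose symbol is Psma, Psmb, Psmc, Psmd or Psme followed by digits, and 43 such genes were found among the 19938 genes with a probe of their own. They comprised 14 subunits of the constitutive core particle, 3 immunoproteasome subunits, 2 tissue-specific core subunits, 17 subunits of the regulatory particle, 3 chaperones of that particle and 4 subunits of other activators. For the 5 members with several probes (Psma3, Psma5, Psmb3, Psmc1 and Psmd2), the probe of highest mean was used.

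The study compared PGCs of mouse embryos at embryonic day 9.5 that were wild type for Ror2 (WT, Ror2+/+) with PGCs of embryos homozygous for the Y324C allele of this Wnt5a receptor (mutant, Ror2Y324C/Y324C). Each group held 4 embryos of a mixed genetic strain, with 1 microarray per embryo, and the sires carried the Oct4-ΔPE transgene on both chromosomes, so that every embryo had the fluorescent reporter used for sorting. The reporter rests on the distal part of the Oct4 regulatory sequence, and the allele changes Ror2 in every cell that expresses it, the tissue around the PGCs included. The WT embryos had 25, 25, 22 and 21 somites and the mutants 24, 22 to 23, 23, and 21 to 22, and the midpoint stands for a range below.

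The proteasome is the protease that degrades most short-lived proteins of the cytosol and nucleus after they are tagged with ubiquitin. Its core is a barrel of alpha and beta rings whose catalytic beta subunits face a closed chamber. A regulatory particle on the barrel's end binds the ubiquitin chain, removes it, and threads the unfolded protein through an ATPase ring. In immune tissue and under interferon, sister subunits replace the catalytic ones and form the immunoproteasome. Migrating PGCs divide and move at the same time, and both activities depend on timed protein turnover.

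All values are on the log2 scale, so that 1 unit is a doubling, and differences are mutant minus WT. Probes respond to their targets with different strength, so values of different genes stand side by side here and are not ranked as transcript amounts. Medians of the 8 arrays lay between 5.37 and 5.58, and the standard deviation (SD) of an array's values over all genes was narrowest in WT 3 (1.77) and widest in WT 1 (1.95). WT 3 and mutant 4 also differed from the other 6 arrays in Y-linked transcripts, with a mean of Eif2s3y, Uty and Kdm5d of 3.74 and 3.71 against 7.21 to 7.73. The 15 PGC markers measured had means by gene from 8.01 to 12.43, and array means from 9.73 to 9.97. Markers of other cells had array means from 4.73 to 5.23 (12 of 12 macrophage genes measured), 5.03 to 5.27 (10 of 10 endothelial genes, of which PGCs also express Pecam1), 4.77 to 5.47 (9 of 10 primitive erythroid genes), 5.02 to 5.53 (10 of 10 trunk mesenchyme genes) and 6.04 to 6.63 (9 of 10 hindgut genes). WT 3 was highest for the first 4 of these lists. By gene, the highest mean was 8.19 in the hindgut list and 8.68 (Pecam1) in the endothelial list, both above the lowest PGC marker. It was 6.25 in the macrophage list, 5.98 in the erythroid list and 6.17 in the trunk mesenchyme list. In mutants, 0 of the 9 erythroid genes had a difference above 0 (44.6% of all genes), with a median of -0.24 against -0.02 over all genes. The mean of these genes was 5.47 in WT 3, 4.77 to 5.15 in the other WT arrays and 4.82 to 4.99 in mutants. The part of such cells in the values below was not tested, and in RNA of sorted cells fewer cells of a type and less RNA per cell cannot be told apart.

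The constitutive proteasome was represented by high values on every array. Over the 14 core and 17 regulatory subunits, the means of the members over all 8 arrays ran from 8.43 (Psmd3) to 11.13 (Psma6), and the median of the means of all 19938 genes was 5.61. The 7 core alpha subunits, which form the outer rings, had means from 9.56 to 11.13, and the 7 core beta subunits from 9.81 to 11.05. The 6 ATPases had means from 8.86 to 10.87, the 3 other subunits of the base from 9.49 to 10.20, and the 8 subunits of the lid from 8.43 to 10.13. The 3 immunoproteasome subunits had means of 4.64 to 6.49, and the testis subunit Psma8 and the thymus subunit Psmb11 had means of 4.95 and 4.99. No scanner values were used here, so a value near or below the middle of all genes cannot be called detected or not.

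**Figure D1:**
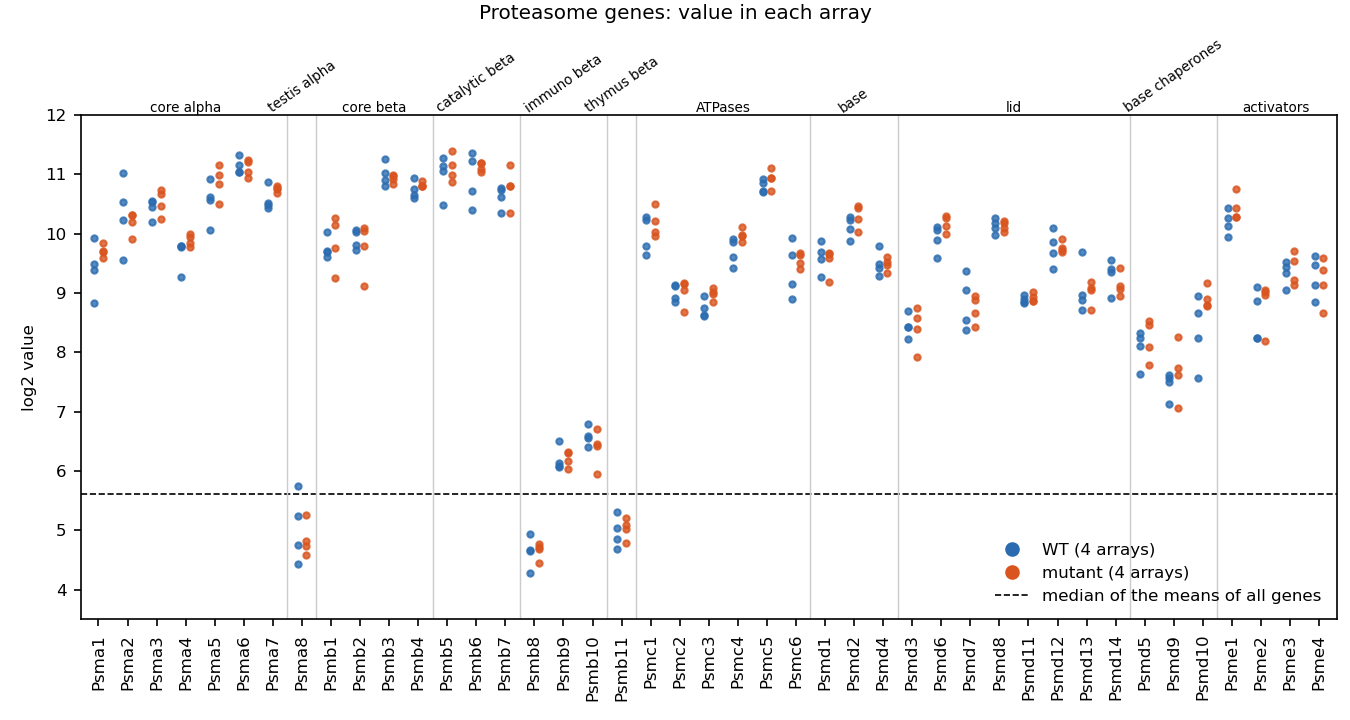
Log2 value of each proteasome gene in each array, with 1 point per embryo, WT in blue and mutant in orange, grouped by class, and the median of the means of all genes as a dashed line at 5.61. The 31 constitutive subunits lie above the line on every array, at 7.92 or higher, while Psma8, Psmb8 and Psmb11 lie close to it or below.

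In the comparison of mutant with WT, 0 of the 43 genes passed the limma test at an adjusted p under 0.05, where the share of all genes called was 0%. At an unadjusted p under 0.05 there were again 0 members, against 4.68% of all genes (2.72% higher and 1.96% lower in mutants). The 4 mutant values lay wholly above the 4 WT values for 0 members (1.08% of all genes) and wholly below for 0 members (1.44% of all genes). The difference was above 0 for 29 of the 43 members, or 67.4%, against 44.6% of all genes. The median difference was 0.09 over the members and -0.02 over all genes. Most members have high values: in the upper part of the genes by mean (over 5.61), the difference was above 0 for 27 of 40 members and for 57.4% of the genes. After each array was centred on its median, 34 members and 58.2% of all genes were above 0, and after quantile normalization 26 members and 52.3%.

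By class, the core particle had 10 of 14 genes above 0 and a median difference of 0.11. The regulatory particle had 10 of 17 genes above 0 and a median of 0.01, made up of 6 of 6 ATPases with a median of 0.17, 1 of 3 other base subunits and 3 of 8 lid subunits with a median of -0.02. The immunoproteasome subunits had 2 of 3 genes above 0 and a median of 0.01, and the activators 3 of 4 and a median of 0.13. The base chaperones had 3 of 3 genes above 0 and the largest class median, 0.21, and their mean was 7.96 ± 0.22 over the WT arrays and 8.26 ± 0.18 over the mutant arrays (SD, n = 4 each). These counts and medians are descriptions, since no gene of any class passed the test. With 1 array left out, the core median ran from 0.03 (without WT 3) to 0.19 (without mutant 4), the regulatory one from 0.01 (without WT 2) to 0.12 (without WT 1) and the immunoproteasome one from -0.10 (without WT 1) to 0.11 (without WT 3). Without WT 3 the regulatory median (0.039) was above the core median (0.031).

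**Figure D2:**
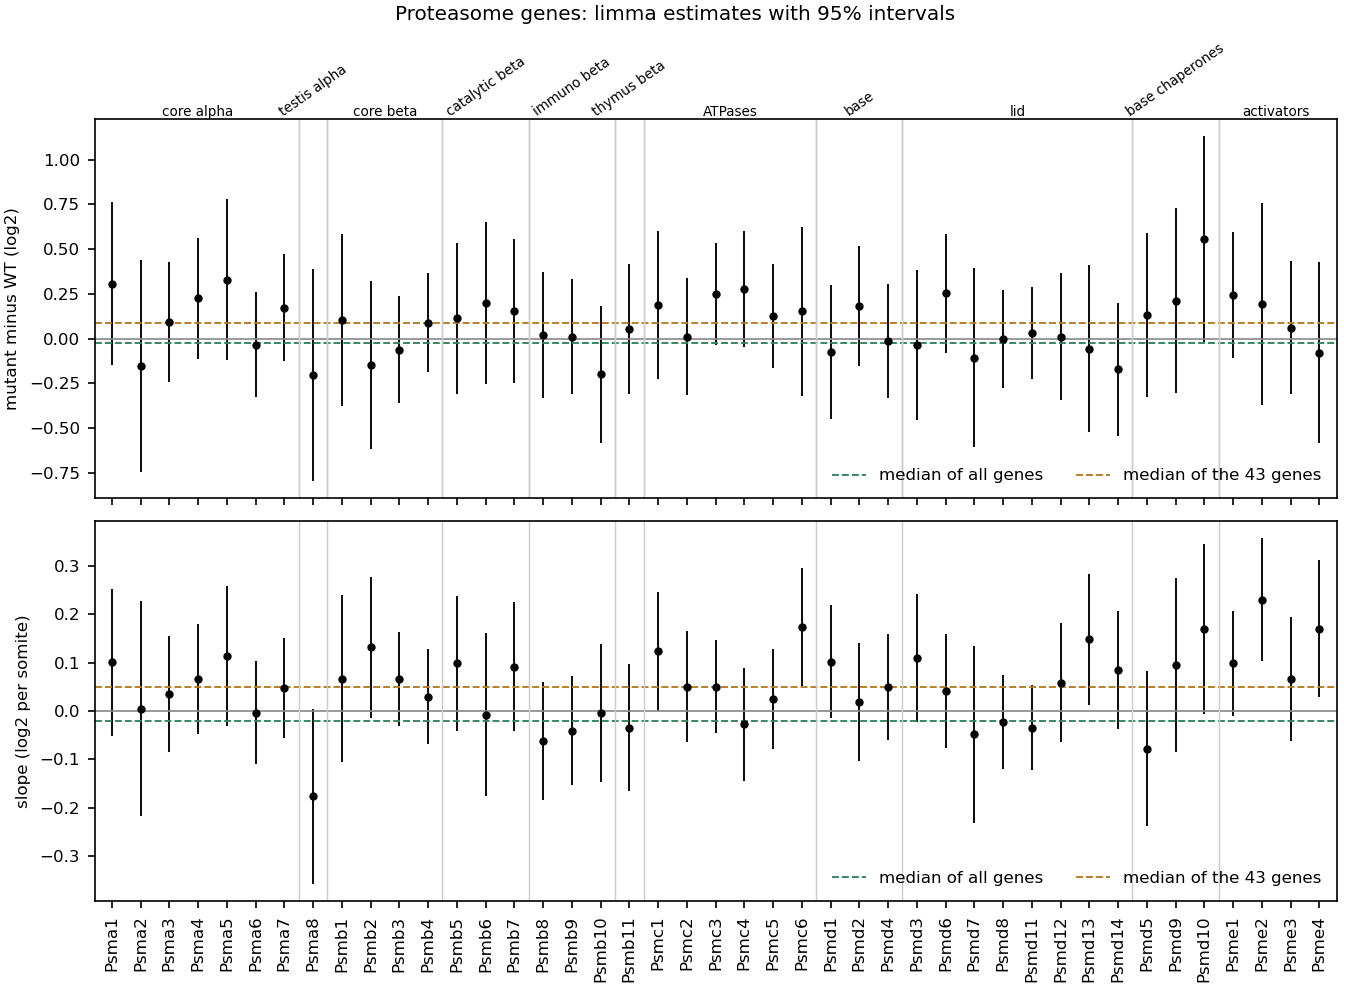
Difference between mutant and WT in log2 units (upper panel) and slope per somite in log2 units with genotype in the model (lower panel) for each proteasome gene, as the limma estimate with its 95% interval, with dashed lines at the medians of all genes and of the 43 genes. Every interval for the difference includes 0, and the intervals for the slope of Psme2, Psmc6, Psme4, Psmd13 and Psmc1 lie above 0.

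Psmd10 (gankyrin), a chaperone that holds ATPases of the base during assembly, had the smallest p of the members. Its values were 8.94, 8.66, 7.57 and 8.24 in WT 1 to 4 and 8.78, 9.17, 8.90 and 8.79 in mutants 1 to 4. The mutant values lay close together, WT 1 was within their range, and WT 3 was far below the rest. The means were 8.35 ± 0.59 in WT and 8.91 ± 0.18 in mutants (SD, n = 4 each), and the difference of 0.56 ± 0.26 (SE) had a 95% interval from -0.02 to 1.13 and a limma adjusted p of 0.973. Without WT 3 the difference was 0.30. The other base chaperones, Psmd5 and Psmd9, differed by 0.13 ± 0.21 and 0.21 ± 0.23 (SE).

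Psmc3, Psmc4 and Psmd6 followed in the upward direction. Psmc3, an ATPase of the ring that unfolds substrates, was at 8.94, 8.75, 8.63 and 8.62 in WT and at 8.99, 8.85, 9.09 and 9.01 in mutants. The WT 1 value lay inside the mutant range, and the difference was 0.25 ± 0.13 (SE; 95% interval -0.04 to 0.54). Psmc4, the ATPase that Psmd10 binds, was at 9.87, 9.42, 9.61 and 9.92 in WT and at 10.12, 9.95, 9.86 and 9.99 in mutants. Here WT 2 and WT 3 were low and the other WT values met the mutant range, with a difference of 0.28 ± 0.15 (SE). Psmd6, a scaffold subunit of the lid, was at 10.06, 10.11, 9.60 and 9.90 in WT and at 10.00, 10.30, 10.13 and 10.26 in mutants, with a difference of 0.25 ± 0.15 (SE). Its groups overlapped as well, with WT 3 the lowest.

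In the downward direction the members of smallest p were Psmb10, Psmd14, Psma8 and Psmb2. Psmd14, the deubiquitinase that cuts the chain from a substrate, was at 9.56, 9.36, 9.40 and 8.93 in WT and at 9.07, 9.42, 9.13 and 8.94 in mutants. The groups covered almost the same range, and the difference was -0.17 ± 0.17 (SE). Psmb2, a structural beta subunit, was at 10.06, 10.03, 9.73 and 9.80 in WT and at 10.10, 10.04, 9.79 and 9.12 in mutants. Mutant 4 alone was low, and the difference was -0.15 ± 0.21 (SE). Psmb10 and Psma8 are described with their classes.

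The 3 catalytic subunits and their immunoproteasome sisters form pairs that take the same place in the beta ring, and both genes of each pair were measured. Psmb5, which carries the chymotrypsin-like activity, was at 11.05, 11.27, 10.49 and 11.14 in WT and at 11.40, 10.98, 11.16 and 10.88 in mutants. Its sister Psmb8 was at 4.28, 4.67, 4.93 and 4.65 in WT and at 4.72, 4.77, 4.44 and 4.68 in mutants. WT 3 was the lowest of all arrays for Psmb5 and the highest for Psmb8, and both genes' groups overlapped.

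Psmb6, of the caspase-like activity, was at 11.23, 10.73, 10.39 and 11.36 in WT and at 11.19, 11.03, 11.10 and 11.19 in mutants. Its sister Psmb9 was at 6.14, 6.08, 6.51 and 6.07 in WT and at 6.17, 6.32, 6.04 and 6.31 in mutants, with WT 3 again lowest for the first and highest for the second. Psmb7, of the trypsin-like activity, was at 10.77, 10.74, 10.36 and 10.62 in WT and at 10.81, 10.80, 11.15 and 10.35 in mutants. Its sister Psmb10 was at 6.41, 6.55, 6.79 and 6.58 in WT and at 6.45, 6.71, 6.42 and 5.96 in mutants. Psmb10 had the smallest p among members lower in mutants, with a difference of -0.20 ± 0.17 (SE; 95% interval -0.58 to 0.18), and mutant 4 was the low array.

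Each pair was also compared as the value of the immunoproteasome subunit minus that of its sister, in which a shift of both genes of an array in the same direction cancels. A shift of the 2 genes in opposite directions, as seen in WT 3, does not cancel and adds up in the pair value. The 2 probes' strengths do not cancel, so only the change between groups can be read. Psmb8 minus Psmb5 differed between mutant and WT by -0.09 (95% interval -0.85 to 0.66, two-sided exact permutation p = 0.8, adjusted over the 3 pairs 0.8). For Psmb9 minus Psmb6 the difference was -0.19 (interval -0.97 to 0.60, exact p = 0.743, adjusted 0.8). For Psmb10 minus Psmb7 it was -0.35 (interval -0.88 to 0.18, exact p = 0.171, adjusted 0.514). The smallest p that 4 arrays against 4 allow is 0.0286. WT 3 had the highest value of the 8 arrays in all 3 pairs (-5.56, -3.88 and -3.57).

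The sequences before the start sites of Psmb5 and Psmb8 are shown because these sister genes take the place of the chymotrypsin-like activity. RefSeq windows (GRCm38.p6) of 250 bases before the start were given for 36 of the 43 members and were searched on both strands for 6 motifs. TGACNNNGC, the core of the element bound by Nfe2l1 and Nfe2l2, was in 5 windows (13.9%, against 11.5% of 27025 genes), those of Psmb5, Psmb6, Psmc6, Psmd9 and Psmd12. The core of the interferon-stimulated response element, a pair of GAAA blocks set 2 bases apart, was in 3 (8.33% against 3.46%), those of Psmb3, Psmd4 and Psmd9, and in none of the immunoproteasome windows. The window of Psmb5 is chr14:54617996-54618245 on the minus strand, with TGACNNNGC in capitals starting at position -47 from the start. The window of Psmb8 is chr17:34197945-34198194 on the plus strand, with TATAAA, the only one of the 6 motifs found there, in capitals starting at -237. A match describes letters and is not evidence of binding.
Psmb5: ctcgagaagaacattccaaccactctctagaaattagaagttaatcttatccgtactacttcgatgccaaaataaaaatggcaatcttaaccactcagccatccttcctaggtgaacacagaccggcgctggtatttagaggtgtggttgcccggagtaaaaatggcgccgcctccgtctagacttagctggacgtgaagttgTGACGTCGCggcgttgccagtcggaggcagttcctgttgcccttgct
Psmb8: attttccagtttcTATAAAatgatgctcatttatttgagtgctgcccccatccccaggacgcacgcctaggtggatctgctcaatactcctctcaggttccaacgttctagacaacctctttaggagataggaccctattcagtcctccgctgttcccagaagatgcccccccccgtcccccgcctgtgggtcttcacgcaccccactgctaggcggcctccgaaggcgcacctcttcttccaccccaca

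The tissue-specific core subunits had values below the median of all genes (5.61) on every array except WT 3 for Psma8. Psma8, the alpha subunit of the testis proteasome found in meiotic germ cells, was at 4.44, 4.76, 5.75 and 5.25 in WT and at 4.73, 5.25, 4.81 and 4.58 in mutants. WT 3 stood above the other arrays, and the difference of -0.20 ± 0.27 (SE) was within the spread. Psmb11, the catalytic subunit of the thymus proteasome, was at 4.85, 5.04, 4.68 and 5.30 in WT and at 5.09, 4.78, 5.01 and 5.20 in mutants. For Psmb11 no array stood apart, and the difference was 0.05 ± 0.16 (SE).

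The activators cap the core without ATP. Psme1, which with Psme2 forms the PA28 ring that interferon induces, was at 10.27, 10.43, 10.13 and 9.95 in WT and at 10.76, 10.28, 10.28 and 10.44 in mutants. The groups overlapped between 10.28 and 10.43, with a difference of 0.24 ± 0.16 (SE). Psme2 was at 8.86, 9.11, 8.24 and 8.24 in WT and at 9.05, 8.97, 9.03 and 8.18 in mutants. WT 3, WT 4 and mutant 4 were low and the other 5 arrays high, and the difference was 0.19 ± 0.25 (SE).

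Psme3, the nuclear PA28 gamma, was at 9.52, 9.44, 9.34 and 9.05 in WT and at 9.14, 9.54, 9.70 and 9.23 in mutants, a difference of 0.06 ± 0.17 (SE). Psme4, or PA200, a nuclear activator linked to histone degradation, was at 9.62, 9.47, 9.14 and 8.84 in WT and at 9.13, 9.38, 9.59 and 8.66 in mutants, a difference of -0.08 ± 0.23 (SE). For both genes the groups shared most of their range.

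The second comparison asked how the members varied with somite number, which dates an embryo within the day. With genotype in the model, 0 of 43 slopes passed the limma test at an adjusted p under 0.05 (0% of all genes). At an unadjusted p under 0.05 there were 5 members (9.74% of all genes), all with higher values at more somites (5.02% of all genes) and 0 in the other direction (4.72%). The slope was above 0 for 31 of 43 members, or 72.1%, against 40.5% of all genes. In the upper part of the genes by mean, it was above 0 for 31 of 40 members and for 58.6% of the genes. The median slope was 0.05 per somite over the members and -0.02 over all genes. Taken within WT alone, 30 members had a slope above 0 (40.1% of all genes), within mutants 31 (46.3%), and 24 in both (21.6%). For the difference of slopes between genotypes, 0 members passed the test after adjustment (0% of all genes) and 0 at an unadjusted p under 0.05 (4.52%).

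Slopes above 0 were then counted by class. The core particle had 12 of 14 slopes above 0 with a median of 0.07, the regulatory particle 13 of 17 with a median of 0.05, and the activators 4 of 4 with a median of 0.13. The immunoproteasome subunits had 0 of 3 above 0, with slopes of -0.06 ± 0.05 for Psmb8, -0.04 ± 0.05 for Psmb9 and -0.0042 ± 0.063 (SE) for Psmb10, and Psma8 and Psmb11 had slopes of -0.18 ± 0.08 and -0.03 ± 0.06. None of these 5 passed the test, and the difference between classes was not tested.

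**Figure D3:**
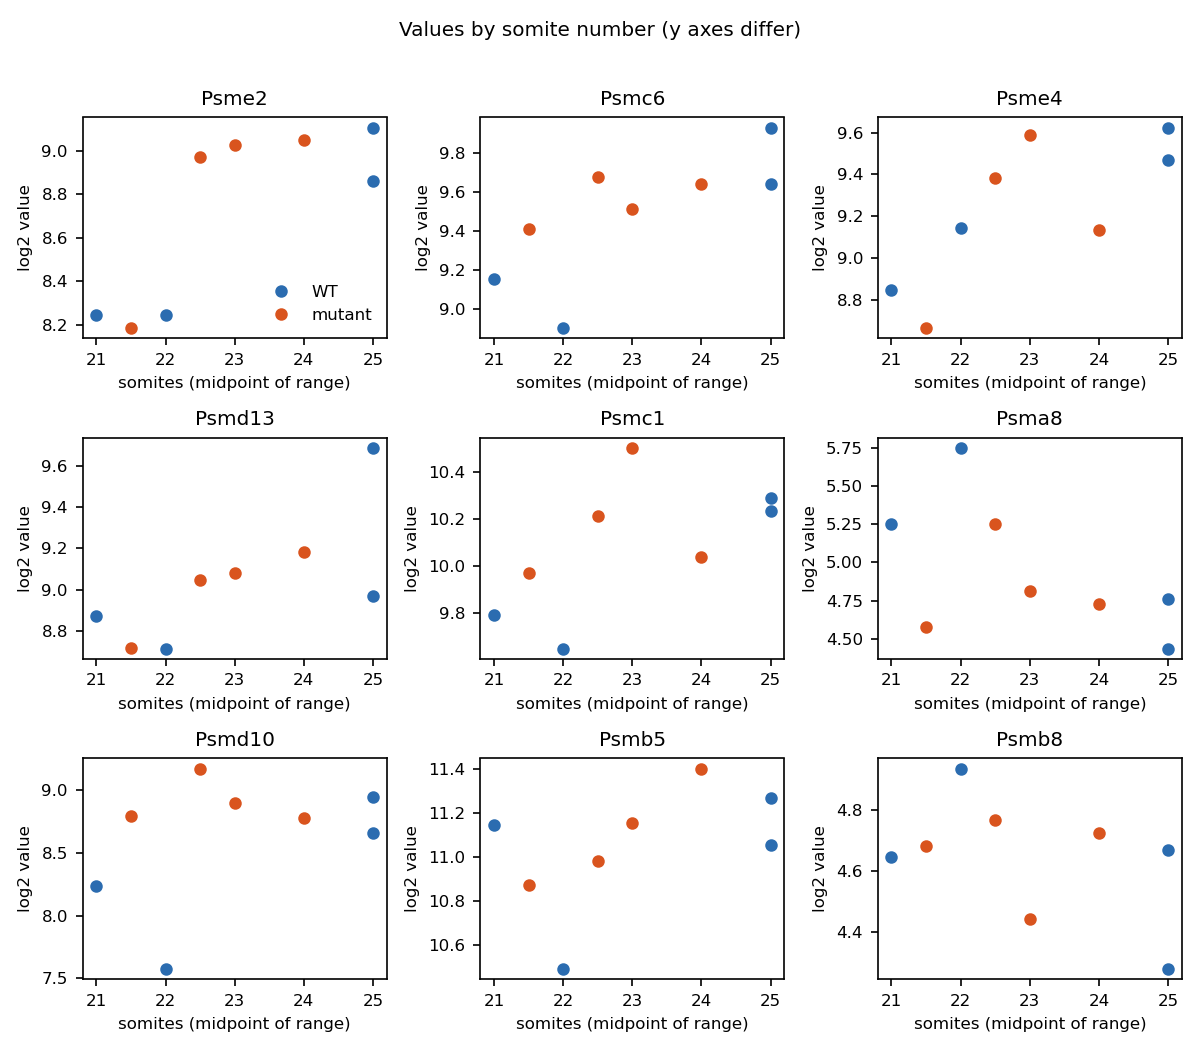
Log2 value against somite number (midpoint where the labels give a range) for Psme2, Psmc6, Psme4, Psmd13, Psmc1 and Psma8, the members of smallest p for the slope, and for Psmd10, Psmb5 and Psmb8, WT in blue and mutant in orange, 1 point per embryo. The 3 embryos at 22 somites or fewer have the lowest values of Psme2, from 8.18 to 8.24, while the others lie between 8.86 and 9.11.

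Psme2, the PA28 beta subunit, had the steepest slope of the members, at 0.23 ± 0.06 per somite (SE; 95% interval 0.10 to 0.36). Its limma p was 0.0025 before adjustment and 0.380 after. In order of stage its values were 8.24 (WT 4), 8.18 (mutant 4), 8.24 (WT 3), 8.97 (mutant 2), 9.03 (mutant 3), 9.05 (mutant 1), and 8.86 and 9.11 (WT 1 and WT 2). The 3 youngest embryos were low and the 5 older ones high, with no overlap and no further rise among the older ones. The slope was 0.20 in WT and 0.34 in mutants. The 3 low arrays are also those of narrowest spread over all genes (1.77 to 1.83 against 1.86 to 1.95), and with that spread as a covariate the slope was 0.18. Of these arrays, WT 3 and mutant 4 also had low Y-linked values (means of 3.74 and 3.71, against 7.35 in WT 4). Somite number thus runs partly with the Y-linked split. With WT 3 and mutant 4 both left out, the slope of Psme2 was 0.17 or above and its unadjusted limma p under 0.05, as in all 18 alternatives. That setting leaves WT 4 alone of the 3 low arrays, and the part of the Y-linked split itself was not tested. Psme1, the partner of Psme2, had a slope of 0.10 ± 0.05 (SE).

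Psmc6, an ATPase of the base, had a slope of 0.17 ± 0.05 (SE), with a limma p of 0.0099 before adjustment and 0.428 after. Its values were 9.64, 9.93, 8.90 and 9.15 in WT 1 to 4 and 9.64, 9.68, 9.51 and 9.41 in mutants 1 to 4. The slope was 0.20 in WT, where the embryos with 21 and 22 somites were low, and 0.08 in mutants, where the values lay close together. Psme4 had a slope of 0.17 ± 0.06 (SE), with WT 4 and mutant 4, the youngest of each group, the lowest. Its slope was 0.16 in WT and 0.20 in mutants.

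Psmd13, a lid subunit, had a slope of 0.15 ± 0.06 (SE), and its values were 9.68, 8.97, 8.72 and 8.88 in WT and 9.18, 9.05, 9.08 and 8.72 in mutants. WT 1 alone was high, and the other 7 arrays lay within 8.72 to 9.18. Psmc1, the ATPase whose tail helps open the core's gate, had a slope of 0.12 ± 0.05 (SE). The unadjusted p stayed under 0.05 in 4 of 18 alternative settings for Psmc1, in 11 for Psmd13, in 13 for Psme4 and in 16 for Psmc6. Over all 18 settings the slope ran from 0.040 to 0.159 for Psmc1 and from 0.036 to 0.217 for Psmd13. For Psme4 it ran from 0.078 to 0.203 and for Psmc6 from 0.131 to 0.219.

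In the other direction the smallest p belonged to Psma8, Psmb8, Psmd5 and Psmd11. Psma8 had a slope of -0.18 ± 0.08 (SE), with 5.75 in WT 3 and 5.25 in WT 4 and mutant 2, while mutant 4, of nearly the same stage, was at 4.58. Psmd5, a base chaperone, was at 8.24, 7.63, 8.11 and 8.33 in WT and at 8.46, 8.09, 7.78 and 8.52 in mutants, a slope of -0.08 ± 0.07 (SE). WT 2 and mutant 3 were its low arrays. Psmd11, a scaffold of the lid, was at 8.84, 8.83, 8.90 and 8.97 in WT and at 8.87, 8.86, 8.93 and 9.01 in mutants, a slope of -0.03 ± 0.04 (SE). The youngest embryo of each group, WT 4 and mutant 4, was highest for both Psmd5 and Psmd11.

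The windows of Psme2 and Psme4 are shown because both activators were among the members of smallest p for the slope. GGGCGG, the GC box bound by Sp1, was in 21 of the 36 windows (58.3%, against 35.4% of all genes), and CCGGAAG, the core bound by ETS factors, in 11 (30.6% against 7.83%). CCAAT, bound by NF-Y, was in 14 (38.9% against 37.5%), and TATAAA, the letters of the TATA box at any distance, in 4 (11.1% against 14.3%), Psmb8 among them. The window of Psme2 is chr14:55591102-55591351 on the minus strand, with a GC box on the reverse strand in capitals starting at -67. The window of Psme4 is chr11:30771525-30771774 on the plus strand, with the ETS core in capitals starting at -53, and it also holds a GC box.
Psme2: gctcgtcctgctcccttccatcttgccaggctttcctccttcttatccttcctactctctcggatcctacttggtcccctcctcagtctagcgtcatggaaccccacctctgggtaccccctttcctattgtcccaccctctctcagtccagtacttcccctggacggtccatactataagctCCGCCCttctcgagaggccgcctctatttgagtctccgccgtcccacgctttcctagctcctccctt
Psme4: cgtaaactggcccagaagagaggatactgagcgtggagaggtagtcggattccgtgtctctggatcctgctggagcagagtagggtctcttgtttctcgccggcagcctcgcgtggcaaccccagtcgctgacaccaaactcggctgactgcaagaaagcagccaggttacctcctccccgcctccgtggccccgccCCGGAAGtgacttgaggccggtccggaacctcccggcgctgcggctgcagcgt

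Many members were low on the same arrays. WT 3 held the lowest value of 18 of the 43 members (12.1% of all genes) and mutant 4 that of 11 (10.5% of all genes). Mutants 1 and 2 held the lowest value of 0 members (8.44% and 14.1% of all genes). The mean of the 31 constitutive subunits was 10.11, 9.92, 9.70 and 9.92 in WT 1 to 4 and 10.04, 10.04, 10.06 and 9.81 in mutants 1 to 4. WT 3 and mutant 4, the arrays of low Y-linked values, were the low arrays, and WT 1 the high one. The mean of the 3 immunoproteasome subunits ran the other way in WT, at 5.61, 5.77, 6.08 and 5.77. In mutants this mean was 5.78, 5.93, 5.63 and 5.65. WT 3 also held the highest value of 24.2% of all genes, while the other arrays held from 8.88% (mutant 1) to 13.8% (WT 4). High values on WT 3 were thus not particular to the immunoproteasome subunits. The part of that array's narrow spread in these values was not tested.

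**Figure D4:**
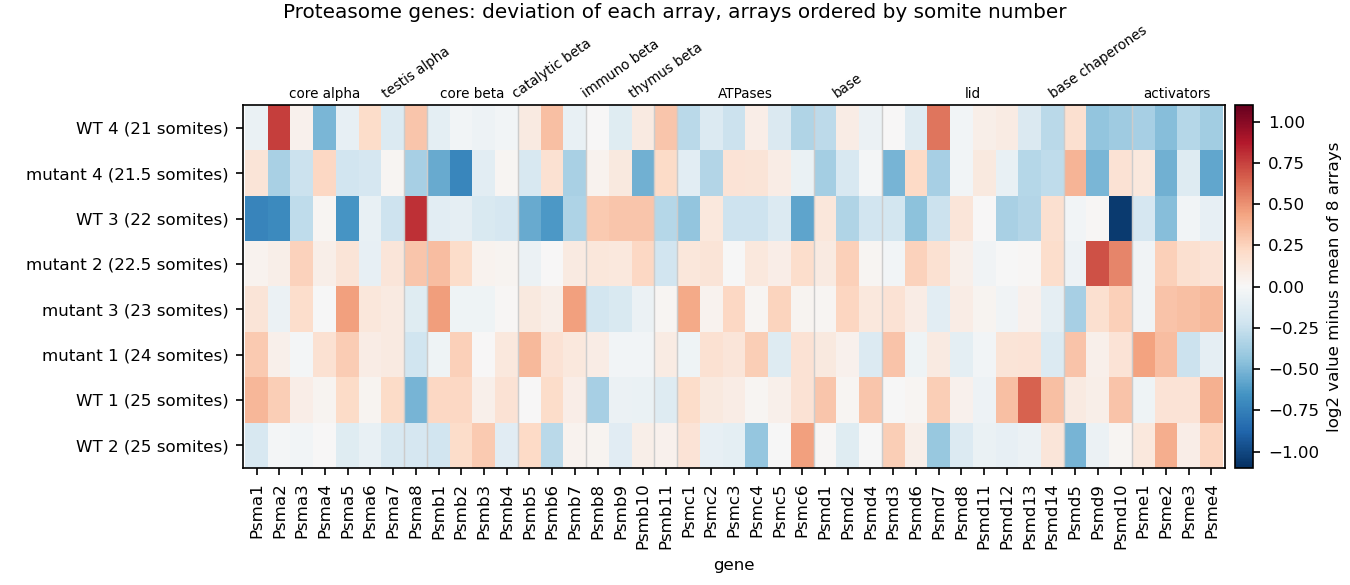
Deviation of each array from the mean of the 8 arrays for each proteasome gene, in log2 units (blue below and red above), with arrays ordered from fewest to most somites. The row of WT 3 is blue for most constitutive subunits and red for Psma8 and the 3 immunoproteasome subunits.

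The same arrays differed in the spread of all values. The 4 arrays of widest spread, WT 1 and mutants 1, 2 and 3 (SD 1.90 to 1.95), had means of the 43 members from 9.34 to 9.37, and the others (1.77 to 1.86) from 9.05 to 9.23. With the spread as a covariate, a choice made after the data were seen, 20 of 43 members lay above 0 for mutant minus WT (53.5% of all genes) with a median of -0.0048. That fit held no somites. In a separate fit of somites with genotype and the spread in the model, 22 slopes lay above 0 (51.0% of all genes) with a median of 0.00014. The spread is computed over all genes, the members included, and most members have high values. By this construction a wider spread tends to go with higher member values, so these fits cannot set the members apart from high-value genes in general. When WT 3 and mutant 4 were both left out, 33 members lay above 0 for mutant minus WT (46.7% of all genes). The median was 0.08, against -0.016 over all genes. In that setting 28 slopes lay above 0 (43.4% of all genes), with a median of 0.03 against -0.011. What makes the spread differ between arrays was not tested.

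**Figure D5:**
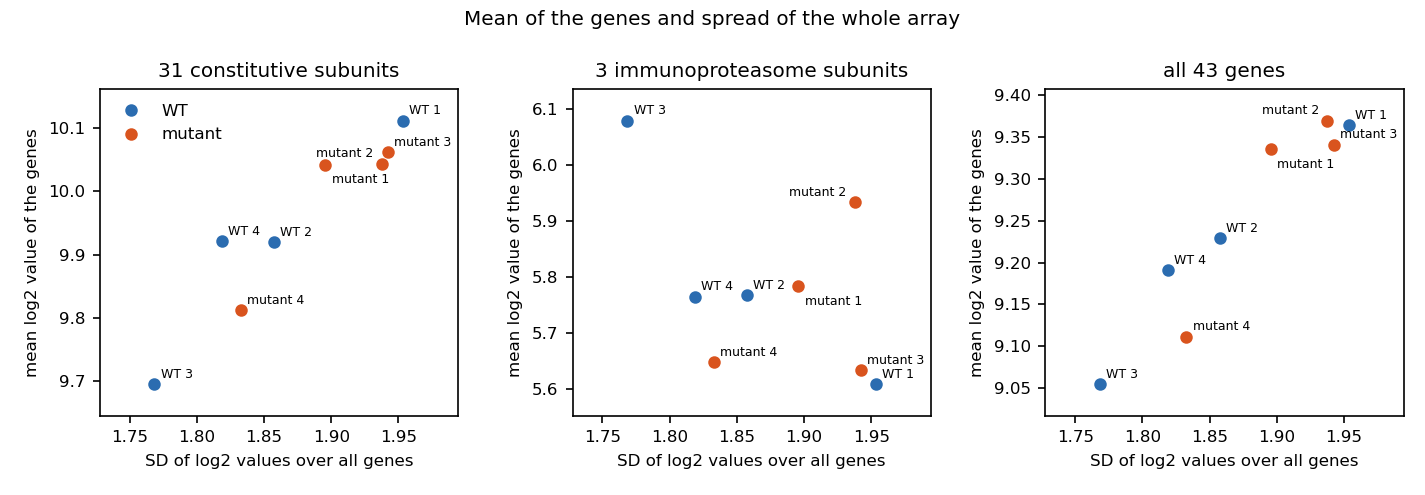
Mean log2 value of 31 constitutive subunits (left), 3 immunoproteasome subunits (middle) and all 43 genes (right) against the SD of log2 values over all genes, 1 point per array, WT in blue and mutant in orange. WT 3 has the narrowest spread at 1.77, the lowest constitutive mean at 9.70 and the highest immunoproteasome mean at 6.08.

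The members differed in how much they varied. The SD over the 8 arrays was greatest for Psmd10 (0.50), Psma8 (0.44), Psma2 (0.43) and Psme2 (0.41), and least for the lid subunits Psmd11 (0.06) and Psmd8 (0.10) and the core subunit Psmb4 (0.12). Psma2 was at 10.53, 10.24, 9.56 and 11.03 in WT and at 10.32, 10.32, 10.19 and 9.91 in mutants, so that its highest and lowest values both lay in WT. The 8 values of Psmd11, given above, differed least. Where a gene had several probes they gave differences of the same sign, for Psma5 0.33 ± 0.20 and 0.40 ± 0.23, for Psmc1 0.19 ± 0.19 and 0.10 ± 0.17, and for Psmb3 -0.06 ± 0.13 and -0.19 ± 0.17 (SE). Some of these probes may lie in near-identical copies of the genes, and their positions were not used here.

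Of 48 other genes of the pathway listed, 36 were measured and are given beside the members. For mutant minus WT, 0 passed the limma test after adjustment, 2 were higher (2.72% of all genes) and 0 lower (1.96%) by the unadjusted p, and 27 lay above 0 (44.6% of all genes) with a median of 0.11. Sem1, the small lid subunit that carries no Psm symbol, was at 11.25, 10.95, 10.91 and 11.11 in WT and at 11.45, 11.60, 11.31 and 11.30 in mutants. All mutant values lay above all WT values, as for 1.08% of all genes. The difference was 0.36 ± 0.14 (SE) with a limma adjusted p of 0.973. Ifngr2, a chain of the interferon gamma receptor, differed by 0.74 ± 0.26 (SE) with the same adjusted p. Ifngr1, the other chain, went the other way, by -0.22 ± 0.17 (SE). Uchl5, a deubiquitinase of the regulatory particle, differed by 0.14 ± 0.15, and Nploc4, a cofactor of the segregase Vcp, by 0.31 ± 0.15 (SE).

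The chaperones that build the core had 4 of 5 differences above 0, among them Pomp, the maturation protein, at 0.28 ± 0.16, and Psmg1, which pairs alpha subunits, at 0.34 ± 0.25 (SE). Nfe2l1, the transcription factor that raises proteasome genes when the protease is blocked, differed by 0.06 ± 0.13, and Nfe2l2 by -0.35 ± 0.20 (SE). Uba6, a ubiquitin-activating enzyme, differed by 0.21 ± 0.13 (SE). Of the 9 measured genes of peptide presentation and interferon response, 5 lay above 0, and their means over all arrays ran from 3.66 to 8.39.

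For the somite slope, 24 of the 36 pathway genes lay above 0 (40.5% of all genes) and 0 passed the limma test after adjustment. At an unadjusted p under 0.05, 6 had higher values at more somites (Psmg1, Psmg4, Ecpas, Ube3c, Ngly1 and Tapbp; 5.02% of all genes) and 1, Mafk, lower (4.72%). Psmg1 and Psmg4, both chaperones of the core, had slopes of 0.20 ± 0.07 and 0.22 ± 0.09 (SE). Psmg1 was at 8.20, 8.22 and 8.40 in the 3 youngest embryos and at 8.55 to 9.29 in the others. Ecpas, which binds proteasomes, had a slope of 0.11 ± 0.05 (SE). As with the members, the 3 youngest embryos are the arrays of narrowest spread, and the part of the spread in these slopes was not tested.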

How the data were processed

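Single embryos were dissociated with trypsin and EDTA, and fluorescent cells were sorted straight into buffer for micro-column RNA isolation, NuGEN amplification and biotin labelling, per the labels' protocols. The authors deposited 1 value per probe and array, read here as log2 from its range. Their background correction and normalization are not given in the texts used here. Of 35557 probes, 21789 had 1 gene symbol, 1621 several and 12147 none.

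Tests used limma 3.58.1 (lmFit, eBayes; R 4.3.3), Benjamini-Hochberg adjustment over 19938 genes and a threshold of 0.05. Mutant and WT were compared as group means, and somite slopes had genotype in the model. Catalytic pairs had exact permutation tests over 70 labelings. Scripts were tested on simulated data. Values per array are given for the catalytic pairs, activators, Psma8, Psmb11, the 4 members of smallest p per direction of each comparison and, chosen after its values were seen, Psma2. Alternatives changed the scaling, probe rule, low-value filter, limma trend, covariates, replicate block and arrays left out. Same-numbered embryos did not deviate together, so numbers were not taken as pairs. The members and lists were chosen with earlier results of these data known.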

Additional observations from a re-analysis of the deposited data

Results flagged for a closer look

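Within each group of 4 arrays, the highest or lowest array was set apart when its gap to the nearest array was most of the group's range (Dixon's test at 95%). Of 96 groups of values examined, 6 had such an array, and chance gives about 1 in 20 for a single group. The 96 are not separate, since they include means of classes beside their members, and many members were low on the same arrays. The count is therefore not set against a number due to chance. Psma4, a core alpha subunit, was low in WT 4 at 9.27, with the other WT arrays between 9.78 and 9.80. Psmb9 was high in WT 3 at 6.51, with the next WT value at 6.14. Psmb4 was high in mutant 1 at 10.90, with the next at 10.81. Psme2 was low in mutant 4 at 8.18, with the other mutants from 8.97 to 9.05, and mutant 4 is also the youngest of its group. The mean of the 14 core subunits was lowest in mutant 4, at 10.32 against 10.57 to 10.62, and so was the mean of all 43 members, at 9.11 against 9.34 to 9.37.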

How the results depend on the processing

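No member passed the adjusted limma test for either comparison under any of the alternatives run. At an unadjusted p under 0.05, the count of members for mutant minus WT, 0 in the fit reported, was 1 after quantile normalization (4.86% of all genes), after median centring (5.15%), with somites as a covariate (6.55%) and with the replicate block (4.47%), and 0 to 5 with 1 array left out (5 without WT 1, where 8.60% of all genes passed). For the slope the count of 5 became 3 after quantile normalization (8.40% of all genes), 8 after median centring (9.58%) and 2 with the array spread as a covariate (5.40%), added after the data were seen. It ran from 3 (without WT 1 or mutant 4; 6.51% and 7.34% of all genes) to 11 (without WT 4; 10.6%) with 1 array left out. The median slope of 0.05 fell to 0.000136 with the spread as a covariate. With 1 array left out, members above 0 ran from 26 to 34 for the difference (41.5% to 50.2% of all genes). For the slope they ran from 29 to 36 (40.0% to 43.3% of all genes). The slope of Psma2, 0.0044 ± 0.099 (SE) in the fit reported, was -0.14 when WT 3 and mutant 4 were both left out. Its sign turned in 7 of the 18 alternatives, with slopes from -0.17 to 0.23, and the cause was not tested. Correlations of the deviations of same-numbered embryos ran from -0.19 to 0.10, so the replicate block is an alternative only. Psme2 kept an unadjusted p under 0.05 for its slope in 18 of 18 alternatives (0.17 to 0.28), and Psmd10 reached one for its difference in 5 of 17. Over all 17 alternatives the difference of Psmd10 ran from 0.26 to 0.75.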
